A study of Mus musculus with 8 samples.

Results

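The Bcl2 family of apoptosis regulators was followed in mouse muscle cells after depletion of Septin9, a filament-forming GTPase of the septin cytoskeleton. The 10 members were taken by symbol from the 42391 gene entries of the raw counts, namely the anti-apoptotic genes Bcl2, Bcl2l1 and Mcl1, the effectors Bax and Bak1, and the genes Bcl2l11, Bbc3, Bid, Bad and Bnip3, which carry a BH3 domain or a related stretch. The family was chosen because Bcl2l1 was lower after Septin9 siRNA in both cell types, so the values of that contrast, and the calls counted from it, are given for the members as a description and nothing is read from them. The levels in control samples and the difference between cell types were not used for the choice.

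RNA with poly(A) tails was sequenced from 8 samples, and each cell type with each siRNA was represented by 2 replicates, which come from independent experiments. C2C12 is a mouse myoblast line that differentiates in low serum. C2C12 cells labelled wild type received 50 nM of a non-targeting siRNA or of 1 Septin9 siRNA, with 100 nM present during the initial 5 h. They were harvested 60 h after transfection, when they had differentiated for 12 h. Primary myoblasts, labelled wild type, were grown from hindlimb muscle of mice 5 weeks old, were plated on collagen to remove fibroblasts, received the same siRNAs and were harvested while proliferating, 48 h after transfection. The siRNA concentration for primary myoblasts and whether their 2 experiments used different animals are not given in the sources used here. P-values therefore measure the spread between these samples. Cell type, medium, differentiation and time differ together between the cell types, and their parts in any difference cannot be told apart. A single Septin9 siRNA was used, so an effect of its sequence on other transcripts and an effect of Septin9 depletion cannot be told apart either.

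Proteins of the Bcl2 family decide at the mitochondrial outer membrane whether a cell releases cytochrome c and activates caspases. Bax and Bak1 form pores in that membrane, Bcl2, Bcl2l1 (Bcl-xL) and Mcl1 hold them in check, and BH3-only proteins such as Bim (Bcl2l11), Puma (Bbc3), Bid and Bad bind the guardians or the effectors and tip the balance. Much of this control acts on proteins, by binding, phosphorylation, cleavage and turnover, which RNA does not show. Bnip3 is a distant relative that is best known as a hypoxia-inducible receptor for the removal of mitochondria. Myoblasts use the same machinery, and caspase activity also accompanies their normal differentiation.

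Between 20898611 and 27223414 reads were counted per sample. Septin9 itself had 413 and 437 CPM (counts scaled to library size, here by the TMM method over all 8 samples) in the C2C12 control replicates and 147 and 186 CPM after Septin9 siRNA. Primary myoblasts had 368 and 480 CPM of it in controls and 204 and 159 CPM after the siRNA, so the groups did not overlap in either cell type. All 7 myoblast markers were detected in every group, whereas Kdr, an endothelial receptor, and Ptprc and Adgre1, which mark leukocytes, were at 0 in all C2C12 samples. The 4 endothelial markers summed to between 2.44 and 4.79 CPM in primary myoblasts, the 5 leukocyte markers to between 2.37 and 4.07 CPM, the 3 Schwann cell markers to between 2.06 and 2.38 CPM and the 3 adipocyte markers to 0.0420 and 0.943 CPM in the controls. The primary myoblast experiments differed in fibroblast and pericyte markers, in spite of the plating on collagen. The 5 fibroblast markers summed to 8.54 and 8.59 CPM in the control and siRNA samples of replicate 1 and to 69.4 and 80.8 CPM in those of replicate 2, where Pdgfra, a receptor of fibroblasts and their progenitors, had 32.2 CPM in each. The 3 pericyte and smooth muscle markers summed to 29.4 and 28.7 CPM in replicate 1 and to 93.9 and 91.5 CPM in replicate 2. In C2C12 samples the fibroblast markers summed to between 44.3 and 82.6 CPM, with Thy1 at 0 in each, and the pericyte and smooth muscle markers to between 24.6 and 42.6 CPM. Thy1 rose after the siRNA in primary myoblasts in edgeR, from 0.505 and 8.67 CPM to 0.964 and 14.4 CPM, but did not pass in DESeq2. Most muscle differentiation markers rose with the siRNA, 4 of 7 in C2C12 cells and 6 of 7 in primary myoblasts. This is by edgeR's quasi-likelihood test, at an adjusted p-value under 0.05 and a change of at least 1.5-fold. Among them was Myog, the transcription factor myogenin, with log2 fold changes of 1.03 (SE 0.12) and 0.89 (SE 0.16). Acta1, a muscle actin of the same list, was called in neither. Its log2 ratios were -0.58 and -0.28 in the C2C12 pairs and -0.40 and 0.25 in the primary myoblast pairs. DESeq2 called 2 of 7 in C2C12 cells, Mymk and Tnni1 but not Myog, and 5 of 7 in primary myoblasts, Myog among them. Of the 5 proliferation markers 4 fell in C2C12 cells and 1 in primary myoblasts at an edgeR adjusted p-value under 0.05, none of them past the fold change threshold, and 3 and 0 passed in DESeq2. The median log2 fold change of the 5 was -0.32 in C2C12 cells and -0.37 in primary myoblasts. In primary myoblasts all 5 had an unadjusted edgeR p-value under 0.05, beside 2864 of 17117 genes tested. The replicates also differed in both kinds of marker. In primary myoblast controls replicates 1 and 2 had 4914 and 1144 CPM of Myh3, 998 and 407 of Myog and 250 and 308 of Top2a. In C2C12 controls replicates 1 and 2 had 5.23 and 37.7 CPM of Myog and 458 and 202 of Top2a, a proliferation marker. The part of these shifts and replicate differences, and of the fibroblast and pericyte markers, in the values of the Bcl2 family was not tested. In bulk RNA, fewer cells of a type and less RNA per cell cannot be told apart.

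The levels of the family in control samples were compared between genes in CPM per kilobase of exon. Exon lengths came from mouse GENCODE release M21, whereas the counts carry RefSeq symbols. In the genome the RefSeq model of Bcl2l1 reaches 21936 bases further at 1 end, and that of Mcl1 1844 bases. Levels by RefSeq exon lengths were not computed. Bax stood first in both cell types, with 44.7 to 61.9 CPM per kilobase in C2C12 controls and 130 to 140 in primary myoblast controls. Mcl1 followed with 39.7 to 44.4 CPM per kilobase in C2C12 cells and 30.3 to 36.7 in primary myoblasts, and Bak1 with 32.9 to 33.6 and 29.1 to 29.3. These 3 genes kept their places in both cell types, and their ranges did not overlap with that of the next gene in the order.

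Bcl2l1 took different places in the 2 cell types. In C2C12 controls it was the sixth, at 8.35 and 8.38 CPM per kilobase, below Bnip3 (18.7 to 24.4) and Bad (12.1 to 12.9). In primary myoblast controls it was the fourth, at 23.4 and 25.1 CPM per kilobase, and its range overlapped with that of Bnip3 (14.04 to 24.4), and that of Bnip3 in turn with that of Bid (13.5 to 16.3). Bcl2 was the last of the 10 in both cell types, at 1.31 to 1.98 CPM per kilobase in C2C12 cells and 1.01 to 1.13 in primary myoblasts, and Bcl2l11 was the ninth. In C2C12 controls Bbc3 (3.90 to 3.95 CPM per kilobase), Bid (3.83 to 3.92) and Bcl2l11 (2.02 to 4.64) overlapped, each with the next in that order. When the length of the longest transcript replaced that of all exons, 3 members changed places in each cell type, and Bcl2l1 then stood next after Bax in primary myoblasts. The counts hold a second Bid entry, and with both entries added the mean level of Bid in C2C12 controls was 14.5 in place of 3.88 CPM per kilobase, above Bad and Bcl2l1, which then took the sixth and the seventh place. In primary myoblast controls Bid then stood at 20.5 in place of 14.9 CPM per kilobase, between Bcl2l1, which kept its place, and Bnip3.

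Control primary myoblasts and control C2C12 cells were compared by the same edgeR test over 17103 genes with Benjamini-Hochberg adjustment, and a gene was called when it passed both thresholds, in either direction. Of all genes tested, 33.3% were called, and 17.5% were called with a higher level in primary myoblasts. Among the 10 members 3 were called, Bcl2l1, Bax and Bid, each with the higher level in primary myoblasts. The share of members called was near that of all genes. The median log2 difference of the 10 members was -0.15, and that of all genes 0.01.

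Bcl2l1 encodes the long-lived guardian Bcl-xL and lies on the minus strand at chr2:152780668-152831728 of GRCm38 in mouse GENCODE release M21. The gene also gives a short splice form that promotes death, and counts per gene do not separate the forms. Its raw counts were 837 and 1036 in C2C12 controls and 2555 and 3053 in primary myoblast controls, which is 38.4 and 38.3 CPM against 107 and 115 CPM. Both primary myoblast controls were above both C2C12 controls, 2.95-fold in the fit, with a log2 difference of 1.56 (SE 0.13, edgeR adjusted p = 0.00437). Without C2C12 control replicate 2 the log2 difference was 1.55 with an edgeR adjusted p of 0.0510, and over all alternatives the adjusted p ranged from 1.18e-13, in DESeq2, to 0.0510.

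Bax, the pore-forming effector that moves from the cytosol to mitochondria, lies at chr7:45461697-45466898 on the minus strand. It had 97.6 and 70.5 CPM in C2C12 controls and 205 and 221 CPM in primary myoblast controls. Both primary samples were again above both C2C12 samples, by a log2 difference of 1.36 (SE 0.20, edgeR adjusted p = 0.0112). Without C2C12 control replicate 2 it was 1.14 with an edgeR adjusted p of 0.0649 (adjusted p over all alternatives from 1.56e-06, in DESeq2, to 0.0649). Bak1, the effector that resides in the membrane, had 80.9 and 79.2 CPM in C2C12 and 70.0 and 70.4 CPM in primary myoblast controls, a log2 difference of -0.17 (SE 0.13) that did not pass the test (edgeR adjusted p = 0.347). Per kilobase of exon the ratio of Bax to Bak1 was 1.84 and 1.36 in C2C12 controls and 4.47 and 4.79 in primary myoblast controls, without overlap. The ratio of Bax to Bcl2l1 in CPM was 2.54 and 1.84 in C2C12 controls and 1.91 and 1.92 in primary myoblast controls, and these ranges overlapped.

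**Figure D1:**
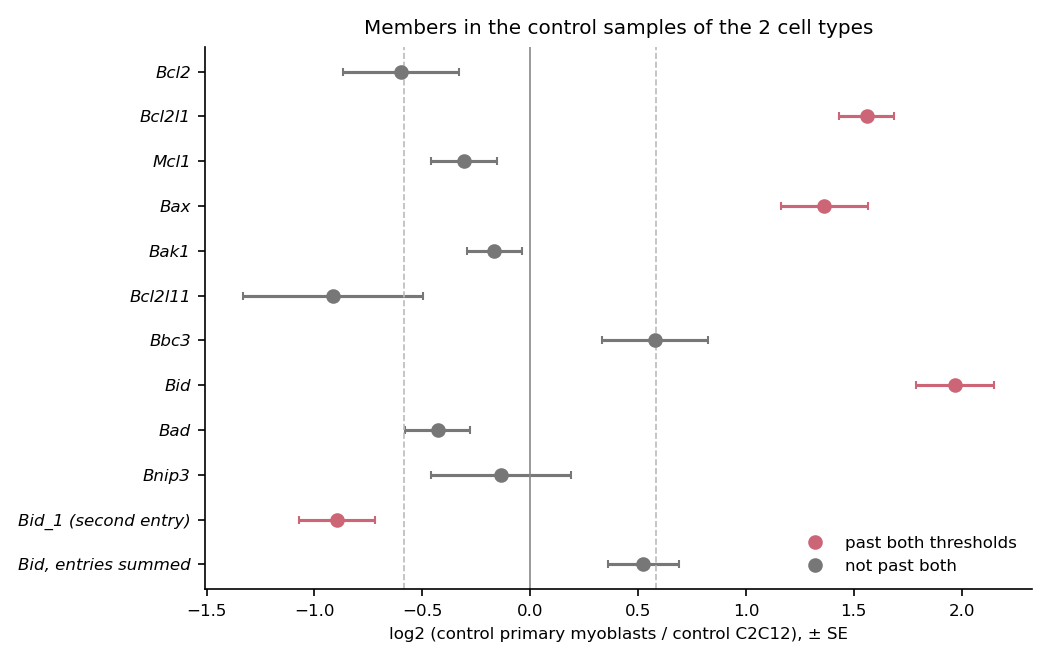
Log2 difference between control primary myoblasts and control C2C12 cells (x axis, fitted value with its standard error, 2 samples per cell type) for the 10 members, the second Bid entry and the sum of the Bid entries. Dashed lines mark a 1.5-fold difference in either direction, and Bcl2l1, Bax and Bid stand to the right at 1.56, 1.36 and 1.97, whereas the second Bid entry stands to the left at -0.89.

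Without primary myoblast control replicate 2, the control with more fibroblast and pericyte markers, Bcl2l1 (1.52), Bax (1.32) and Bid (2.11) were still called in edgeR. The other 6 members, like Bak1, were not called in the control comparison. Mcl1, the short-lived guardian, had 136 and 152 CPM in C2C12 and 104 and 125 CPM in primary myoblast controls, a log2 difference of -0.31 (SE 0.15, edgeR adjusted p = 0.181). Bcl2, the founding guardian of the family, had 12.0 and 18.1 CPM in C2C12 and 9.25 and 10.4 CPM in primary myoblast controls, and its log2 difference was -0.60 (SE 0.27, edgeR adjusted p = 0.145). Both genes were lower in both primary samples than in both C2C12 samples, but the difference did not pass the test.

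Bcl2l11, which encodes Bim, had 16.2 and 37.2 CPM in the C2C12 controls and 13.6 and 14.4 CPM in the primary myoblast controls. The 2 C2C12 experiments stood further apart than the cell types in replicate 1, and the log2 difference was -0.92 (SE 0.42, edgeR adjusted p = 0.148). Without C2C12 control replicate 1 it was -1.41 and passed the test at an edgeR adjusted p of 0.0460, and over all alternatives the adjusted p ranged from 0.0460 to 0.546, both in edgeR. Bbc3, the p53-induced gene for Puma, was low in all samples, with a log2 difference of 0.58 (SE 0.25, edgeR adjusted p = 0.129). Bad, whose protein is silenced by survival kinases, had a log2 difference of -0.43 (SE 0.15, edgeR adjusted p = 0.0814). For Bnip3 the log2 difference was -0.14 (SE 0.33, edgeR adjusted p = 0.767), and its sign turned when single samples were left out.

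Bid, whose protein links death receptors to mitochondria after cleavage by caspase 8, is listed in the counts under 2 entries, Bid and Bid_1, the second named as a further copy. The rule takes the entry Bid, and this entry alone is the member. Its raw counts were 296 and 377 in C2C12 controls and 1380 and 1269 in primary myoblast controls, whereas Bid_1 had 843 and 988 in C2C12 controls and 514 and 481 in primary myoblast controls. The entries thus differed between the cell types in opposite directions, with a log2 difference of 1.97 (SE 0.18, edgeR adjusted p = 0.00522) for Bid and -0.89 (SE 0.18, edgeR adjusted p = 0.0210) for Bid_1. Without C2C12 control replicate 2 the call of Bid was lost at 1.98 (edgeR adjusted p = 0.0572). Bid_1 was not called without C2C12 control replicate 1, without C2C12 control replicate 2 or without primary myoblast control replicate 2, at edgeR adjusted p-values of 0.0905, 0.0989 and 0.0634, and kept its sign in each. Its adjusted p over all alternatives ranged from 0.00278, in DESeq2, to 0.0989. With the counts of both entries added, an alternative chosen after the data were seen, the log2 difference was 0.52 (SE 0.17) and no longer passed the test (edgeR adjusted p = 0.0674, the highest of all alternatives, the lowest being 4.71e-13 in DESeq2).

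The share of Bid counts on the first entry was 26.0% to 30.0% in the 4 C2C12 samples and 72.5% to 74.5% in the 4 primary myoblast samples. It was 26.0% and 27.6% in C2C12 controls and 28.3% and 30.0% after the siRNA, and 72.9% and 72.5% against 74.5% and 72.8% in primary myoblasts. Genes near Bid on chromosome 6 are also listed under 2 entries. Atp6v1e1, a subunit of the vacuolar proton pump, had counts on its entries that differed by at most 6, with 1394 or more on each. Bcl2l13, a mitophagy receptor of the same family that overlaps Bid by 913 bases on the opposite strand, had 43.1% to 44.8% of its counts on the first entry in C2C12 cells and 55.4% to 56.0% in primary myoblasts. Mical3 had 53.1% to 56.7% and 64.4% to 66.0%. The share on the first entry was therefore higher in every primary myoblast sample than in every C2C12 sample for Bid, Bcl2l13 and Mical3. What the second entry stands for is not given in the sources used here, and whether reads were counted on both entries of Bid was not tested, so the level of Bid and its difference between the cell types are uncertain.

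**Figure D2:**
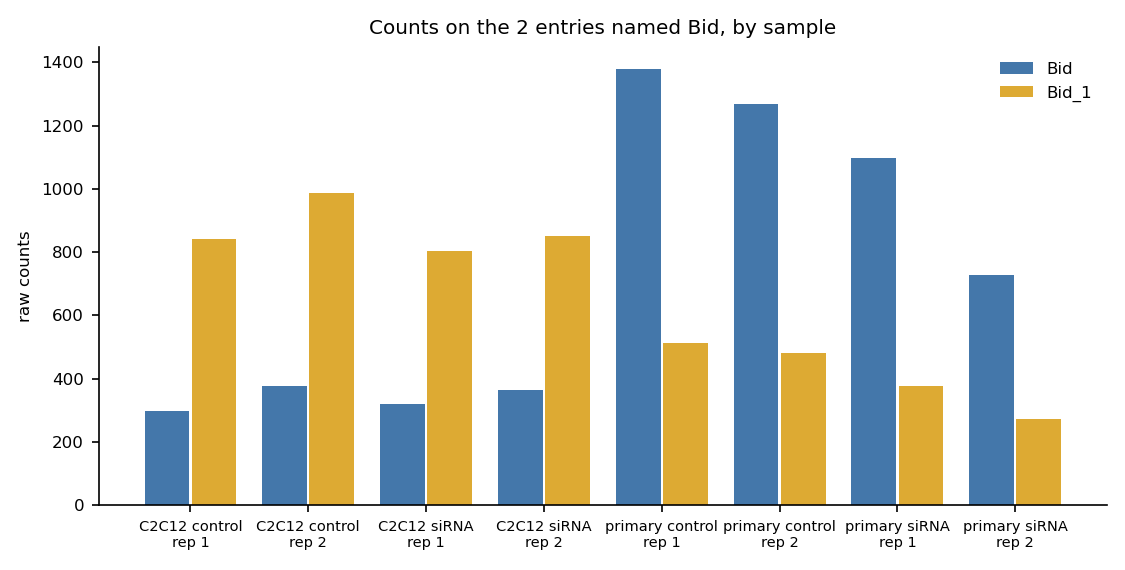
Raw counts (y axis) on the entries Bid and Bid_1 in each of the 8 samples (x axis). Bid_1 holds more counts than Bid in all 4 C2C12 samples, for example 843 against 296, and Bid holds more in all 4 primary myoblast samples, for example 1380 against 514.

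The levels after Septin9 siRNA were then set against the controls of the same experiment. Each cell type was fitted alone in a model that blocks on the replicate number, and fitted log2 fold changes come from that fit, whereas CPM and the ratios within a pair come from the common scale of all 8 samples. In C2C12 cells 1.57% of 15814 genes were called at both thresholds and 6.75% at the adjusted p-value alone, and 1 of the 10 members, Bcl2l1, was called by either rule. In primary myoblasts 3.17% of 17117 genes were called at both thresholds, among them 1 of the 10 members, Bnip3, and 4.99% at the adjusted p-value alone, which took in Bnip3 and Bcl2l1. Of the genes called in primary myoblasts 491 were higher and 51 lower after the siRNA, and with library size alone as the scale these numbers were 165 and 41. Without the first pair Bcl2l1 was not called in C2C12 cells and both Bcl2l1 and Bnip3 were called in primary myoblasts, and without the second pair 0 members were called in primary myoblasts. Because the members were chosen on this contrast, nothing is read from these counts. The median log2 fold change of the 10 members was -0.05 in C2C12 cells and -0.11 in primary myoblasts, beside 0.00 and 0.01 for all genes tested.

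**Figure D3:**
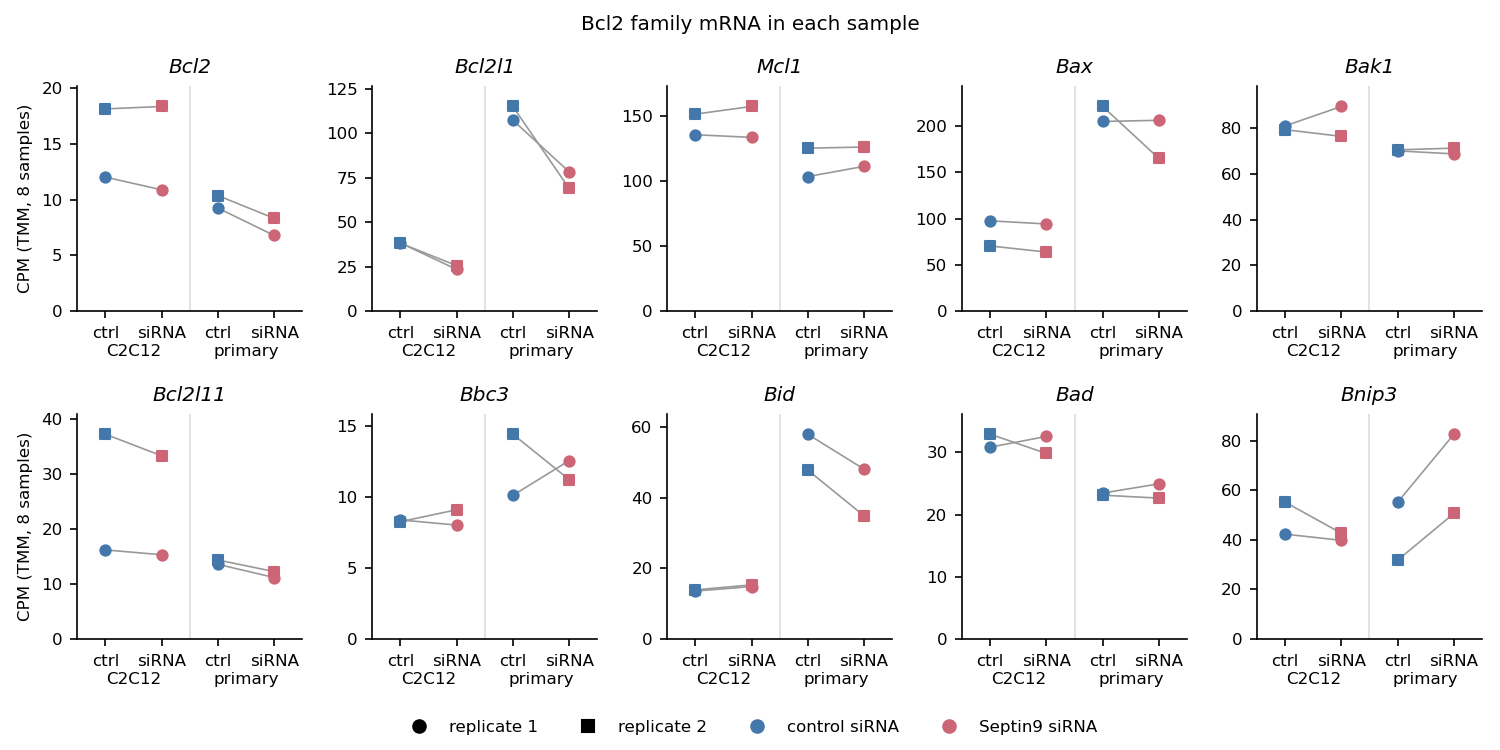
TMM-scaled CPM (y axis, from 0) of each member in the 8 samples, with control siRNA in blue, Septin9 siRNA in red, circles for replicate 1, squares for replicate 2 and lines joining the samples of 1 experiment. Bcl2l1 is lower after the siRNA in all 4 pairs, and Bnip3 is lower in both C2C12 pairs and higher in both primary myoblast pairs.

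Among the guardians, Bcl2l1 had 38.4 and 38.3 CPM in the C2C12 controls and 23.5 and 25.7 CPM after Septin9 siRNA. In the primary cells it stood at 107 and 115 CPM in controls and 78.4 and 69.1 CPM after the siRNA. All 4 siRNA samples were below all controls of their cell type, with log2 ratios of -0.71 and -0.58 in the C2C12 pairs and -0.45 and -0.74 in the primary myoblast pairs.

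The fitted log2 fold change of Bcl2l1 was -0.64 (SE 0.08) in C2C12 cells, which is 1.56-fold lower and just inside the 1.5-fold threshold, and -0.5848 (SE 0.11) in primary myoblasts, just outside it. The difference between these changes, primary myoblasts minus C2C12 cells, was 0.05 (SE 0.13). After the siRNA, primary myoblasts still held more Bcl2l1 than C2C12 controls, at 69.1 and 78.4 CPM against 38.4 and 38.3 CPM. When the Septin9 siRNA samples of both cell types were compared in place of the controls, Bcl2l1 was higher in primary myoblasts by a log2 difference of 1.60 (SE 0.17, edgeR adjusted p = 0.00176), beside 1.56 (SE 0.13) between controls.

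Mcl1 had 136 and 152 CPM in C2C12 controls and 134 and 158 CPM after the siRNA, and 104 and 125 against 111 and 126 CPM in primary myoblasts, so the groups overlapped in both cell types. Its fitted log2 fold changes were 0.01 (SE 0.07) and 0.07 (SE 0.11). Bcl2 had 12.0 and 18.1 CPM in C2C12 controls and 10.9 and 18.4 CPM after the siRNA, an overlap, with a fitted log2 fold change of -0.05 (SE 0.11). Primary myoblasts had 9.25 and 10.4 CPM of it in controls and 6.79 and 8.33 CPM after the siRNA, without overlap, at counts of 220 and 275 against 155 and 174, and its fitted log2 fold change was -0.37 (SE 0.17).

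Since Bcl2l1 and Mcl1 bind overlapping sets of partners, their shares of the 3 guardians among the members were computed from CPM per kilobase of exon. Bcl2l2, another guardian but not a member, was left out of the sum. It had 67.8 and 82.6 CPM in C2C12 controls and 34.3 and 38.8 CPM in primary myoblast controls, over 4462 exon bases. Bcl2l1 made up 16.9% and 15.3% of the guardian sum in C2C12 controls and 11.3% and 10.4% after Septin9 siRNA. In primary myoblasts it made up 42.8% and 39.9% in controls and 33.9% and 28.5% after the siRNA. On this scale Mcl1 took the larger share in every sample, from 55.4% in a primary myoblast control to 86.1% in a C2C12 siRNA sample. Bcl2 never exceeded 3.73%. Per kilobase of the longest transcript Bcl2l1 stood above Mcl1 in both primary myoblast controls, at 41.8 and 44.8 against 30.3 and 36.7 CPM. After the siRNA Bcl2l1 stood below Mcl1 there, at 30.5 and 26.9 against 32.6 and 37.0 CPM. In C2C12 samples it was below Mcl1 by either length. Per kilobase of exon the sum itself was 49.4 and 54.7 CPM in C2C12 controls and 45.5 and 53.7 after the siRNA. In primary myoblasts it was 54.7 and 62.9 against 50.5 and 52.9. It was lower after the siRNA in each pair, but the groups overlapped in C2C12 cells and did not in primary myoblasts. The shares and the sum contain Bcl2l1, whose fall was the ground for the choice. Nothing is therefore read from their change after the siRNA.

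**Figure D4:**
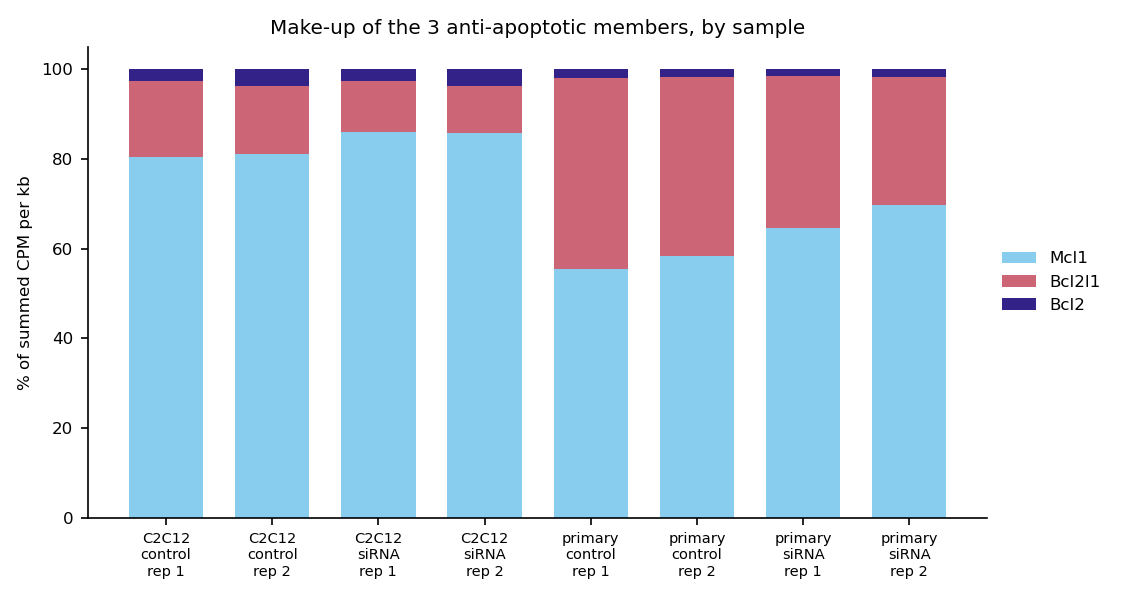
Share of Mcl1, Bcl2l1 and Bcl2 in their summed CPM per kilobase of exon (y axis, in percent) in each sample (x axis). Which of Mcl1 and Bcl2l1 is larger in primary myoblast controls depends on the gene length used. The Bcl2l1 share is 15.3% to 16.9% in C2C12 controls and 39.9% to 42.8% in primary myoblast controls. It is lower in each siRNA sample than in the control of the same experiment, and the family was chosen because Bcl2l1 fell.

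Of the effectors, Bax had 97.6 and 70.5 CPM in C2C12 controls and 94.2 and 63.9 CPM after the siRNA, and 205 and 221 against 206 and 165 CPM in primary myoblasts. Its groups overlapped in both cell types, with fitted log2 fold changes of -0.10 (SE 0.07) and -0.20 (SE 0.12). The primary myoblast pairs differed, with log2 ratios of 0.01 and -0.42. Bak1 had log2 ratios of 0.14 and -0.05 in the C2C12 pairs and -0.03 and 0.01 in the primary myoblast pairs, and fitted log2 fold changes of 0.04 (SE 0.07) and 0.00 (SE 0.11). The ratio of Bax to Bcl2l1 in CPM was 2.54 and 1.84 in C2C12 controls and 4.00 and 2.49 after the siRNA, and 1.91 and 1.92 against 2.63 and 2.39 in primary myoblasts. That ratio was higher after the siRNA in all 4 pairs, although the C2C12 groups overlapped. It contains Bcl2l1, whose fall was the ground for the choice of the family, so nothing is read from its direction.

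**Figure D5:**
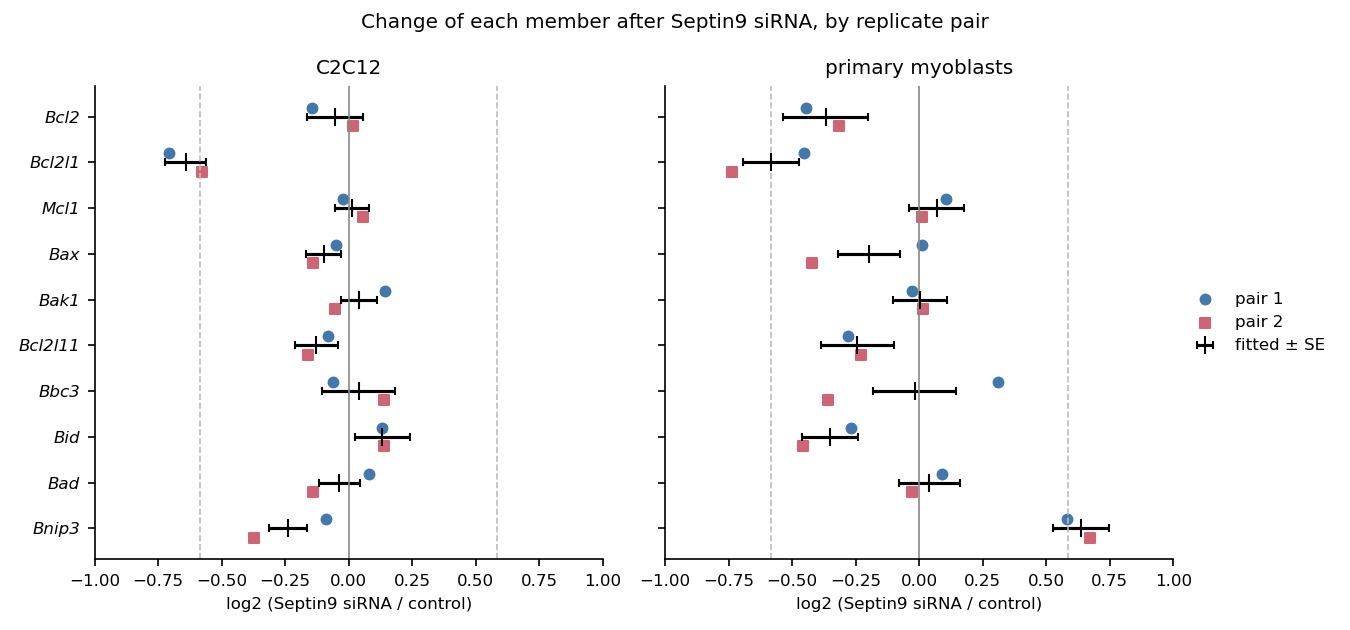
Log2 ratio of Septin9 siRNA to control (x axis) for each member in C2C12 cells (left) and primary myoblasts (right), with the 2 replicate pairs as coloured points and the fitted value with its standard error in black. Dashed lines mark a 1.5-fold change in either direction, and only Bcl2l1 in C2C12 cells (-0.64) and Bnip3 in primary myoblasts (0.64) have fitted values past them.

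Of the 5 BH3-only and related members, Bnip3 had the largest fitted values after the siRNA. It had 42.3 and 55.2 CPM in C2C12 controls and 39.8 and 42.7 CPM after the siRNA, and 55.2 and 31.8 against 82.6 and 50.7 CPM in primary myoblasts. The groups overlapped in both cell types because the experiments stood apart: among primary myoblasts, replicate 2 was lower than replicate 1 by a log2 difference of -0.77 (SE 0.11). The C2C12 pairs had log2 ratios of -0.09 and -0.37, the primary myoblast pairs 0.58 and 0.67, and the fitted log2 fold changes were -0.24 (SE 0.08) and 0.64 (SE 0.11).

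Bnip3 lies at chr7:138890836-138909519 on the minus strand. Its promoter is shown because hypoxia-inducible genes were counted as a group. Promoters were taken from RefSeq (GRCm38.p6) as 250 bases before to 50 bases after each gene start, for all 10 members. The core of the hypoxia response element, ACGTG or its reverse complement CACGT, occurred in 19.6% of 32851 promoters and in those of 3 members, Bax, Bbc3 and Bnip3. In Bnip3 both strands read ACGTG, overlapping as CACGTG from 108 to 103 bases upstream of the start. A match of 5 letters is a description and not a binding site. The stretch below reaches 60 bases to either side of the core, which is in capitals, at chr7:138909549-138909674 on the minus strand:
Bnip3 promoter: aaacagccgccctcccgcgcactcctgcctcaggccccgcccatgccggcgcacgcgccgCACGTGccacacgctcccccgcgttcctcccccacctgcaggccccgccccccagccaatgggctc

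The remaining BH3-only members had fitted log2 fold changes between -0.35 and 0.13. Bcl2l11 was lower in all 4 pairs, with log2 ratios of -0.08 and -0.16 in the C2C12 pairs, -0.28 and -0.23 in the primary pairs, and fitted values of -0.13 (SE 0.09) and -0.24 (SE 0.14). Its raw counts in primary myoblasts were 323 and 381 in controls and 255 and 256 after the siRNA. In C2C12 cells the groups overlapped, since the 2 experiments differed by a log2 value of 1.13 (SE 0.09), the largest difference between replicates among the members there. Bcl2 differed by 0.64 (SE 0.11) and Bax by -0.54 (SE 0.07) between the same replicates, whereas Bcl2l1 differed by 0.02 (SE 0.08).

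Bbc3 had log2 ratios of opposite sign in the 2 pairs of each cell type, from -0.36 to 0.31, at raw counts of 172 to 383. Bad also changed sign between pairs, within -0.14 to 0.09. The entry Bid had log2 ratios of 0.13 and 0.14 in the C2C12 pairs and -0.27 and -0.46 in the primary myoblast pairs, and the entry Bid_1 had -0.04 and -0.03 against -0.39 and -0.47. With both entries added, the fitted log2 fold change of Bid was 0.01 (SE 0.07) in C2C12 cells and -0.37 (SE 0.11) in primary myoblasts. Both entries were thus lower after the siRNA in primary myoblasts, while their sign differed in C2C12 cells.

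Whether the change after the siRNA differed between the cell types was tested as an interaction, with all 8 samples fitted together. In edgeR 0 of 17918 genes passed an adjusted p-value of 0.05 (0.0%), although 1469 stood at an unadjusted p-value below 0.05. With DESeq2, 17 of the 7593 genes with an adjusted p-value passed (0.224%), and 1 of them was Bnip3. For Bnip3 the difference, primary myoblasts minus C2C12 cells, was 0.86 (SE 0.13, edgeR adjusted p = 0.121) or 0.87 (SE 0.21, DESeq2 adjusted p = 0.0220). For Bid it was -0.49 (SE 0.13, edgeR adjusted p = 0.367) and for Bcl2 -0.32 (SE 0.18, edgeR adjusted p = 0.692). The rule that chose the family used the change of Bcl2l1, and the values of the other members in each contrast were known when it was written, so these p-values are no independent support.

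A siRNA can act like a microRNA through the seed of its guide strand, bases 2 to 8. The sequence after the coding sequence was therefore searched for the complement of that seed, GACGTGT, on the transcript strand, in mouse GENCODE release M21. As the guide served the reverse complement of the siRNA sequence given in the study's methods. The heptamer occurred in 550 of 20894 genes (2.63%) and in 0 of the 10 members, with 1477 bases searched in Bcl2l1. The RefSeq model of Bcl2l1 reaches 21936 bases further at its 3′ end, and that stretch was not searched. The hexamer ACGTGT, which lies within the heptamer and contains ACGTG, occurred in 12.9% of genes and in Bcl2, Bcl2l11 and Bbc3. Among 106 searched genes of the surrounding pathways, the heptamer was found in Apaf1, Zmat3, Cycs and Egln1.

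The 4 sites are shown because 2 of these genes, Apaf1 and Zmat3, passed the edgeR adjusted p-value below, and the heptamer is in capitals. They lie on the minus strand of GRCm38 at chr10:90990546-90990566 (Apaf1, exon 27), chr3:32339299-32339319 (Zmat3, exon 6), chr6:50564122-50564142 (Cycs, exon 3) and chr8:124910174-124910194 (Egln1, exon 5), each after the stop codon:
Apaf1: agccagtGACGTGTgaagcgg
Zmat3: tgttaggGACGTGTaggcgtg
Cycs: gacttcaGACGTGTagaagat
Egln1: gagtgacGACGTGTtgcttct

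Of the tested genes with the heptamer, 21.6% in C2C12 cells and 10.5% in primary myoblasts were lower at the adjusted p-value, beside 4.07% and 0.882% of genes without it. Zmat3, a p53-induced RNA-binding protein, fell by 0.54 (SE 0.08, edgeR adjusted p = 0.000217) in C2C12 cells and by 0.55 (SE 0.11, edgeR adjusted p = 0.00634) in primary myoblasts on the log2 scale. Apaf1, the scaffold of the apoptosome, fell by 0.48 (SE 0.11, edgeR adjusted p = 0.0138) in primary myoblasts and had a log2 fold change of -0.17 (SE 0.07, edgeR adjusted p = 0.212) in C2C12 cells. In DESeq2 Zmat3 passed the adjusted p-value in both cell types and Apaf1 in neither. Cycs, which encodes cytochrome c, had log2 fold changes of -0.05 and 0.03, and Egln1, an oxygen sensor, -0.23 and -0.16. The part of the siRNA sequence in these values was not tested.

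The wider machinery was described with 107 genes in 9 lists, of which 93 were tested in C2C12 cells and 94 in primary myoblasts. After Septin9 siRNA 0 of 93 and 1 of 94 were called at both thresholds, beside 1.57% and 3.17% of all genes, and the median log2 fold change was -0.02 and -0.06. At the adjusted p-value alone 9 passed in C2C12 cells, 2 of them higher, and 10 in primary myoblasts, 6 of them higher, beside 6.75% and 4.99% of all genes, the background for each list below. At an unadjusted p-value under 0.05 edgeR left 18 of the C2C12 genes and 22 of the primary myoblast genes. Of all genes tested, 2962 of 15814 and 2864 of 17117 did so, the background for each unadjusted count below. DESeq2 with the same block called 0 and 1 at both thresholds and passed 5 (Birc5, Cdkn1a, Ndrg1, Plk2 and Zmat3) and 3 (Cdkn1a, Gadd45a and Zmat3) at the adjusted p-value, so the other calls at the adjusted p-value named below rest on edgeR alone.

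The nearest relatives of the members had no value past the adjusted p-value in either cell type. Bcl2l2, another guardian (Bcl-w), had log2 fold changes of 0.06 (SE 0.07) and 0.30 (SE 0.11), and Bok, an effector relative, -0.14 (SE 0.07) and -0.12 (SE 0.12). Pmaip1, the BH3-only gene Noxa that acts on Mcl1, had 0.22 (SE 0.10) and 0.13 (SE 0.11), and Bnip3l, the closest relative of Bnip3, -0.15 (SE 0.07) and 0.07 (SE 0.11). Bmf had -0.07 (SE 0.11) and 0.51 (SE 0.22). In the list of 15 further family genes, 8 were tested in each cell type and 0 passed the adjusted p-value in edgeR or DESeq2, although 2 had an unadjusted edgeR p-value under 0.05 in each.

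Of 18 genes of the apoptosome, the caspases and their inhibitors, 1 passed in C2C12 cells and 2 in primary myoblasts at the adjusted p-value, and none at both thresholds. Birc5, survivin, which acts in cell division as well as in survival, fell by 0.43 (SE 0.07, edgeR adjusted p = 0.000730) in C2C12 cells and by 0.44 (SE 0.11, edgeR adjusted p = 0.0260) in primary myoblasts, beside the lower proliferation markers. The other gene was Apaf1. Among 9 tested death receptor genes and 3 voltage-dependent channels of the outer membrane, 0 passed in either cell type in edgeR or DESeq2, and 2 death receptor genes in primary myoblasts had an unadjusted edgeR p-value under 0.05.

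Trp53 and its target genes moved in both directions. Of 17 genes 1 rose and 5 fell in C2C12 cells, and 2 rose and 1 fell in primary myoblasts at the adjusted p-value. Cdkn1a, the cell cycle inhibitor p21 that also accompanies myoblast differentiation, rose by a log2 fold change of 0.38 (SE 0.07, edgeR adjusted p = 0.00319) and 0.53 (SE 0.15, edgeR adjusted p = 0.0391). Gadd45a, a stress-induced gene, was the 1 pathway gene called at both thresholds, at 248 and 111 CPM in primary myoblast controls and 378 and 184 CPM after the siRNA, a log2 fold change of 0.68 (SE 0.12, edgeR adjusted p = 0.00229). Plk2 (-0.44), Eda2r (-0.31), Aen (-0.29), Ccng1 (-0.24) and Zmat3 (-0.54) were the genes that fell in C2C12 cells on the log2 scale.

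Of 11 tested hypoxia-inducible genes 2 rose in primary myoblasts at the adjusted p-value, and 1 fell in C2C12 cells. Pdk1, a kinase that slows pyruvate oxidation, rose by a log2 fold change of 0.55 (SE 0.14, edgeR adjusted p = 0.0247) and P4ha1, a collagen prolyl hydroxylase, by 0.51 (SE 0.12, edgeR adjusted p = 0.0144) in primary myoblasts, where Bnip3 stood at 0.64 (SE 0.11). Ndrg1 fell by 0.52 (SE 0.07, edgeR adjusted p = 5.69e-05) in C2C12 cells, where Bnip3 stood at -0.24 (SE 0.08). The median of the list was -0.09 in C2C12 cells and -0.11 in primary myoblasts, beside 0.00 and 0.01 for all genes. Of 8 mitophagy genes tested in primary myoblasts 2 rose, Pink1, a kinase that marks damaged mitochondria, by 0.52 (SE 0.11, edgeR adjusted p = 0.00945) and Optn, a cargo receptor, by 0.43 (SE 0.12, edgeR adjusted p = 0.0413), and 0 of 7 passed in C2C12 cells, where 0 had an unadjusted edgeR p-value under 0.05 and DESeq2 passed 0.

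Of the 12 transcription factors listed upstream of the family, E2f1 rose by a log2 fold change of 0.29 (SE 0.09, edgeR adjusted p = 0.0484) in C2C12 cells and Myc fell by 0.41 (SE 0.11, edgeR adjusted p = 0.0323) in primary myoblasts. The 10 tested kinases and turnover factors of Bcl2 proteins included 0 that passed in either cell type in edgeR or DESeq2, and 1 in each had an unadjusted edgeR p-value under 0.05.

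Between the controls of the cell types, 40 of 95 pathway genes were called, 20 higher and 20 lower in primary myoblasts, beside 33.3% of all genes. Of Trp53 and its target genes, 9 of 17 were called higher in primary myoblasts and 1 lower, with a median log2 difference of 0.87. Cdkn1a had 136 and 138 CPM in C2C12 controls and 1138 and 691 CPM in primary myoblast controls (log2 difference 2.77, SE 0.30, edgeR adjusted p = 0.00664), and Mdm2, the ligase that degrades p53, had a log2 difference of 1.51 (SE 0.15, edgeR adjusted p = 0.00594).

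Among the relatives, Pmaip1 was 15.8 and 20.8 CPM in C2C12 controls and 120 and 81.9 CPM in primary myoblast controls, a log2 difference of 2.49 (SE 0.28, edgeR adjusted p = 0.00693). Bmf was 20.1 and 42.8 against 3.32 and 3.43 CPM, a log2 difference of -3.20 (SE 0.43, edgeR adjusted p = 0.00955). Bcl2l2 had a log2 difference of -1.02 (SE 0.16, edgeR adjusted p = 0.0138) and Bnip3l of -0.74 (SE 0.15, edgeR adjusted p = 0.0213), so both were higher in C2C12 controls.

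The Trp53 targets, Bcl2l1 and Bax differed alongside muscle differentiation markers, of which 7 of 7 were called higher in primary myoblasts, with summed levels of 3334 to 11584 CPM against 102 to 179 CPM in C2C12 controls. The 5 proliferation markers summed to 641 to 815 CPM in primary myoblast controls and 614 to 1255 CPM in C2C12 controls. The part of these differences in the levels of the Bcl2 family was not tested.

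Some members share genome sequence with other genes, and whether reads were counted by strand is not given in the sources used here. Bad overlaps Gpr137 on the opposite strand by 620 bases, and Gpr137 had 3158 counts in all 8 samples together, beside 473 to 891 per sample for Bad. Bak1 lies within Ggnbp1 on the opposite strand over 9200 bases, and Ggnbp1 had 262 counts in all 8 samples together, beside 1486 to 2144 per sample for Bak1. Bcl2, Bax and Bnip3 overlap further annotated transcripts, of which Gm37053 and Mir3473f within Bcl2 are listed in the counts, at 2 and 0 in all samples together.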

How the data were processed

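Per the study's methods and the submitters' processing notes, STAR 2.7.2 was used by the authors to align read pairs to GRCm38.p6 and featureCounts 2.0.1 to count them per gene; the raw counts were deposited as such. A normalized signal per cell type was deposited as well, in which ComBat-Seq counts were divided by size factors of DESeq2; 100% of these values were whole multiples of the smallest value of their sample (tolerance 0.02), and whole counts were recovered from them for 1 alternative. The gene names are RefSeq symbols (100%), although Gencode is the stated annotation. A total of 16 broken lines, which hold 5 genes, were left out. No value column was left unassigned.

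The members and lists were chosen with earlier results of these data known. Counts were filtered with filterByExpr, scaled by TMM and tested by the quasi-likelihood test of edgeR 4.0.16 in R 4.3.3. Fits within a cell type had the replicate number as a block, since the replicates are independent experiments; deviations of samples with the same number correlated across genes at 0.678 (C2C12) and 0.820 (primary myoblasts). The standard error is the fold change on the log2 scale over the square root of F. Named are Septin9, all members, pathway genes past the thresholds, Bcl2l2, Bok, Bmf, Pmaip1 and Bnip3l, and markers; pathway genes past the adjusted p-value alone, genes with the seed heptamer, Mdm2 and the neighbours of Bid were named after their values were seen. The search for the hypoxia core was added after the data were seen. The fits were also run on simulated counts with the same dispersion for every gene, which need not match these data. Nothing is read from that run. Alternatives were RLE size factors, library size alone, other filters, the block left out or added and DESeq2 1.42.0. Further ones were all samples in 1 fit, no fold change threshold, each sample or pair left out and, added later, further copies summed. For the control comparison the Septin9 siRNA samples also took the place of the controls, and that fit is part of its ranges. A planned search of the proteins for the BH3 core was not run, as no protein sequences were used here.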

Additional observations from a re-analysis of the deposited data

Results flagged for a closer look

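Bnip3 stood out because its change after Septin9 siRNA differed between the cell types in 1 of the 2 tools. The difference in log2 fold change, primary myoblasts minus C2C12 cells, was 0.87 (SE 0.21, DESeq2 adjusted p = 0.0220), and both C2C12 pairs were lower and both primary myoblast pairs higher, whereas edgeR gave 0.86 (SE 0.13) with an adjusted p of 0.121. The values of the members in each contrast were known when the family was chosen. The p-values for Bnip3 and Bid are therefore no independent support.

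Bid stood out because both C2C12 pairs were higher and both primary myoblast pairs lower after the siRNA. The difference was -0.49 (SE 0.13, edgeR adjusted p = 0.367) and did not pass the test. It concerns the entry Bid alone. On the entry Bid_1 the difference was -0.39 (SE 0.13, edgeR adjusted p = 0.452).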

How the results depend on the processing

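In C2C12 cells 248 genes were called after Septin9 siRNA, beside 0 without the replicate block, 100 with DESeq2 and the block, 123 with DESeq2 on the batch-corrected counts, 83 with all 8 samples in 1 fit, 98 to 181 with a replicate pair left out and 1068 with no fold change threshold. The members called were 1, and 0 without the replicate block, and 0 to 1 with a pair left out, where Bcl2l1 was lost without replicate 1 at -0.58. In primary myoblasts 542 genes were called, beside 260 with RLE size factors, 206 with library size alone, 0 without the replicate block, 226 with DESeq2 and the block, 331 with DESeq2 on the batch-corrected counts, 358 without replicate 2, 926 without replicate 1 and 854 with no fold change threshold. The members called were 1, and 2 with library size alone, with all samples in 1 fit and with no fold change threshold, 0 without the replicate block, 0 without replicate 2 and 2 without replicate 1. Without the replicate block, edgeR gave an unadjusted p-value under 0.05 to 372 C2C12 genes and 378 primary myoblast genes. Bcl2l1 stayed negative under all 11 alternatives, between -0.70 and -0.58 in C2C12 cells and between -0.71 and -0.46 in primary myoblasts, and Bnip3 stayed positive in primary myoblasts, between 0.58 and 0.69. A fit that leaves out a pair assumes that the lone pair varies like the other cell type.

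Between the controls, 512 to 4760 genes in place of 5699 and 0 to 4 members in place of 3 were called with a control left out, with the lowest numbers without C2C12 control replicate 2. In that fit Bcl2l1 (1.55), Bax (1.14) and Bid (1.98) lost their calls, at edgeR adjusted p-values of 0.0510, 0.0649 and 0.0572. The replicate block left 4326 genes and the same number of members, 3. Bnip3 turned to 0.71 in the siRNA samples and ranged from -0.64 to 0.21 with a control left out (0.06 without C2C12 control replicate 2, 0.21 without primary myoblast control replicate 2). For the interaction DESeq2 passed 17 genes and 1 member, against 0 in edgeR. The cause of these shifts was not tested. With 2 replicates a missed threshold does not show that levels were alike.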
